A study of Mus musculus with 9 samples.

Results

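The genes described here are the replication-dependent histone genes, taken as every row of the gene table whose symbol has the older cluster form Hist1h, Hist2h, Hist3h or Hist4h. The rule found 69 of the 24493 rows, in 5 families: 6 rows belong to the linker histone H1, 19 to H2A, 19 to H2B, 12 to H3 and 13 to H4. Hist1h2al in H2A and Hist3h2bb-ps in H2B are annotated as processed pseudogenes and were kept. By cluster, 55 rows lie in Hist1 on chromosome 13, 10 in Hist2 on chromosome 3, 3 in Hist3 on chromosome 11 and 1 in Hist4 on chromosome 6, as annotated in GENCODE M21. Expression was measured by RNA sequencing in the mouse pancreatic tumor cell line 6620c1, with 3 samples at each of days 0, 2 and 14. Every column of the table carries the prefix WT, which the labels do not explain, and no genetic change is named for any group. For every sample, day 0 included, the medium named was DMEM that held 20% of the usual amino acids, 0.5% fetal calf serum and 2.5 mM of glucose, described as nutrient and oxygen deprivation. All later samples were deprived, and effects of deprivation and of time cannot be told apart. The sources used here do not give the oxygen level, the medium before day 0 or whether the 3 samples of a day were separate cultures. P-values therefore speak of the spread among these samples alone, and that spread may be technical.

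Core histones H2A, H2B, H3 and H4 form the octamer around which DNA is wrapped in the nucleosome, and H1 binds the DNA between nucleosomes. Dividing cells make most of their core histones in S phase from clustered, intronless genes transcribed in the histone locus body around NPAT. Their mRNAs end in a conserved stem-loop instead of a poly(A) tail. The stem-loop binding protein SLBP and the U7 small nuclear ribonucleoprotein cut the transcript behind the stem-loop, and the mRNA is degraded when DNA synthesis stops. Some of these genes can also be cut at a poly(A) signal further downstream, which yields a polyadenylated mRNA in cells that do not replicate.

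The stem-loop is shown first because it is what sets these mRNAs apart from other mRNAs and because it bears on how a library preparation captures them. The GENCODE M21 transcript models of all 69 members were searched, on the transcript strand, for the letters GGNNCTTTTNAGNNCC with the 6 bases of each arm required to pair across the 4-base loop. A match was present for 44 members (63.8%) and for 5 of the other 23911 rows found in GENCODE (0.021%). In H1, H2A, H2B and H3 the match was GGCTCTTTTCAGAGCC in 26 members, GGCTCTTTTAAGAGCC in 6 and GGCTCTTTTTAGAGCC in 1. In H4 it was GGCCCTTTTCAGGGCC in 7 members, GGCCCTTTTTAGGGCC in 2 and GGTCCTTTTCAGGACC in 2. For the remaining 25 members these letters are not in the model, and 1 of these 25, Hist1h2bc, had the highest level of all members. The models of these 25 ran from 312 bases in Hist1h4k to 2620 in Hist2h2be. Several were short, with 381 bases in Hist1h2bl, Hist1h2bn and Hist1h2bq. A model that stops before a stem-loop cannot hold a match. The 63.8% is therefore a share of models with a match and not of genes with a stem-loop. The stem-loops below, from the members that the results turn on, are in capitals with their flanks in lower case, written 5′ to 3′ as DNA.
Hist1h1c: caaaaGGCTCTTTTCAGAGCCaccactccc
Hist2h2aa1: aaaaaGGCTCTTTTCAGAGCCacccactga
Hist3h2a: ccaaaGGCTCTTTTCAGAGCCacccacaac
Hist1h2bj: ccaaaGGCTCTTTTCAGAGCCacgcacaat
Hist2h3c2: acaaaGGCTCTTTTCAGAGCCaccacagct
Hist1h3c: aaaaaGGCTCTTTTAAGAGCCacctaagat
Hist1h4h: ccaaaGGCCCTTTTCAGGGCCgcccacatt
Hist1h4i: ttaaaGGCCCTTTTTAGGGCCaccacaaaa

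Several of these models run on past the stem-loop. The model ended within 100 bases of it in 22 members and ran 100 bases or more past it in the other 22. In 11 of the latter the last 50 bases held a poly(A) signal, AATAAA or its common variant ATTAAA. Among the members with the highest levels these were Hist1h1c, with 840 bases behind the stem-loop, Hist3h2a with 1643 and Hist1h4i with 330. Their poly(A) signals, in capitals, are shown because a transcript cut there would be captured by poly(A) selection.
Hist1h1c: tatgcttctAATAAAaagcgtttagtt
Hist3h2a: tatatgcccAATAAAataagagtacgt
Hist1h4i: tctgtttacATTAAAagtattctatgc

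The values are gene TPM, which the authors computed. Since TPM hold no read totals, library depth is unknown. Whether the libraries were made by poly(A) selection or by removal of ribosomal RNA is not given in the sources used here, and how much of each member's RNA was captured was not tested. Histone rows held 0.0514% ± 0.00421, 0.0654% ± 0.00362 and 0.0786% ± 0.0200 of all TPM at days 0, 2 and 14 (SD, n = 3 per day). Between 26 and 49 of the 69 rows reached 1 TPM in a library, with 43 to 49 at day 0, 26 to 31 at day 2 and 40 to 48 at day 14. Summed TPM of 6 epithelial markers was 5460 to 11400, against 2.14 to 8.32 for 5 leukocyte, 0.161 to 3.12 for 5 fibroblast, 1.08 to 5.92 for 5 acinar and at most 0.979 for 3 endothelial markers. By day, the epithelial sum was 10800 to 11400 at day 0, 5460 to 7570 at day 2 and 6790 to 8540 at day 14. Krt7, Krt8, Krt18 and Krt19 made up most of it and had their highest means at day 0. Epcam, with means of 2.23, 0.686 and 14.1 TPM, and Cdh1, with 240, 224 and 399 TPM, were highest at day 14. The leukocyte sum was 2.14 to 2.46, 3.04 to 5.11 and 5.61 to 8.32 in the same order, and most of it was Cd68, with means of 2.20, 3.70 and 6.32 TPM. The other 4 leukocyte markers, Ptprc and Cd3e among them, were at most 0.515 TPM in any library. The acinar sum was 1.27 to 1.53, 1.08 to 2.81 and 4.39 to 5.92, the fibroblast sum 0.161 to 0.264, 1.03 to 3.12 and 0.669 to 1.45, and the endothelial sum at most 0.0997, 0.246 and 0.979. The part of these markers in the results was not tested. The Mir6236 row alone held 101120, 167850 and 121760 TPM on average at days 0, 2 and 14, and a TPM is a share of its library.

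Of the 69 rows, 53 had at least 1 TPM in at least 3 libraries and were tested among 12693 rows with limma, on log2(TPM + 1), with calls at an adjusted p under 0.05. Fold changes on this scale understate the change of low rows. A row that passed through 1 day alone had to differ from the others, so counts over the tested rows do not speak for all 69. The 16 untested rows included Hist1h2ao and Hist1h2ba, which were listed at 0 in every library. Only 9 members had a mean of at least 10 TPM over all libraries, 37 had 1 to 10 TPM and 23 had less.

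At day 2 against day 0, 5 tested members rose and 16 fell, which is 9.43% and 30.2% of those tested. Over all rows tested, 27.1% were called higher and 31.9% lower in that comparison. The share that fell was therefore close to the background. The share that rose was smaller than the background. The members that rose were Hist2h2aa1, Hist2h2aa2, Hist3h2a, Hist2h3c2 and Hist1h4h, all with a mean of at least 10 TPM over all libraries, the later ones included. Without the first day 0 library 9 of 49 tested members fell (18.4%, all rows 29.4%), and with a mean of at least 5 TPM required 2 of 15 fell (13.3%, all rows 36.8%). The median log2 difference was -0.67 over tested members and -0.02 over all rows. Over the 15 members with a mean of at least 5 TPM it turned to 0.44, against -0.12 over all rows at that level. That mean is also taken over all libraries, so a rise helps a member to pass. Family H3 had 5 of 9 tested members lower (55.6%) and 1 higher (11.1%). Family H4 had 5 of 13 lower (38.5%) and 1 higher (7.69%). In H2A 3 of 14 were lower and 3 higher (21.4% each), in H2B 2 of 14 were lower (14.3%), and in H1 1 of 3 was lower. Hist4h4, 1 of the 5 lower in H4, was tested only through day 0, so its fall was built in.

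At day 14 against day 0, 12 members rose and 7 fell, or 22.6% and 13.2% of those tested, against 36.2% and 18.8% over all rows. The median over all rows was itself shifted in this comparison, to 0.22 on the log2 scale, and the members' median of 0.32 lay 0.10 above it. With median-of-ratios scaling the median over all rows was -0.05 and the members split into 11 higher and 10 lower (20.4% and 18.5%, all rows 24.4% and 31.8%). With quantile normalization the split was 9 higher and 12 lower (17.0% and 22.6%, all rows 22.4% and 26.5%), and the members' median turned to -0.21, against -0.02 over all rows. The sign of the members' median between these days therefore changed with the scaling, and the split over all rows moved with it. The comparison shares its day 0 libraries with the one at day 2.

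At day 14 against day 2, 15 members rose and 1, Hist1h1c, fell, or 28.3% and 1.89% of those tested, against 27.4% and 3.79% over all rows. Both shares were near the background. The members' median log2 difference of 0.69 lay 0.44 above that of all rows, 0.25. With quantile normalization 7 members rose (13.2%, all rows 11.6%), and 7 rose when the third day 14 library was left out (13.5%, all rows 20.4%). Leaving out the third day 2 library left 8 higher (15.1%, all rows 19.0%) and 2 lower (3.77%, all rows 3.49%).

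**Figure D1:**
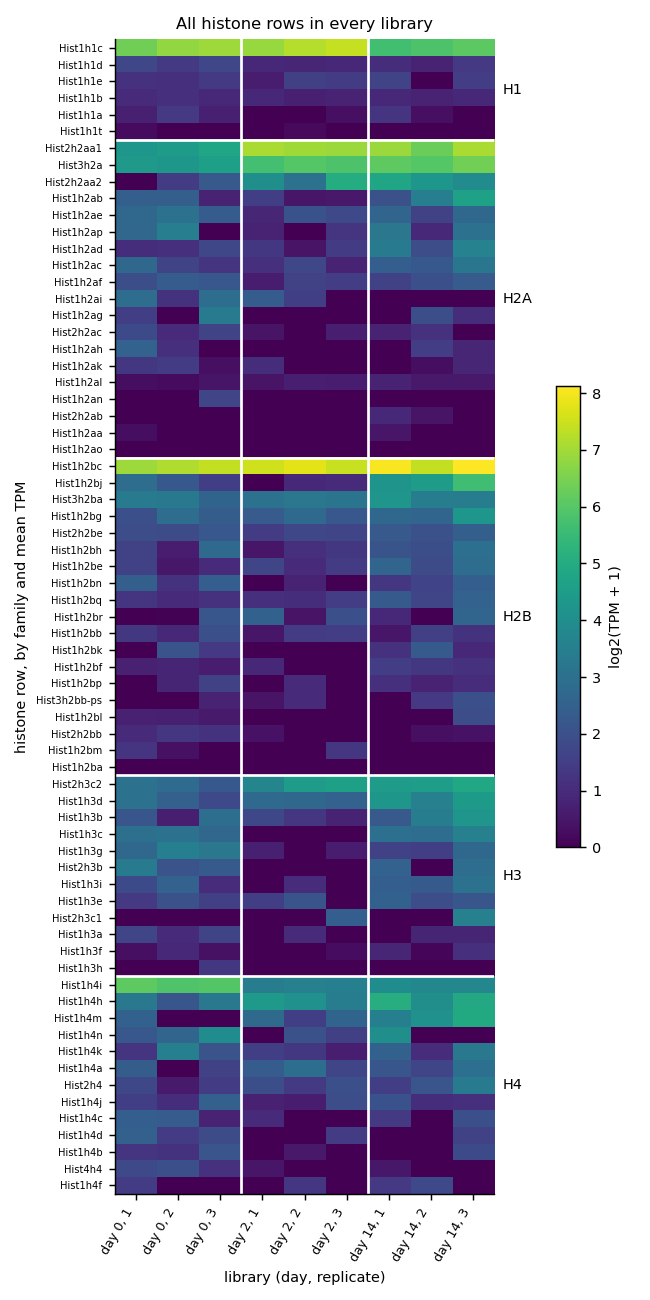
Heat map of log2(TPM + 1) for the 69 histone rows (vertical axis, by family and falling mean TPM) in the 9 libraries (horizontal axis, by day and replicate). Most rows are dark in all libraries, 42 of the 69 are at 0 in at least 1 library, and the bright rows are few.

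Family sums pool rows that share sequence and are given without a test. A read placed on another row of the family still changes a sum of TPM where the models differ in length. H2A rows summed to 81.2, 76.2 and 86.7 TPM in the day 0 libraries, 216, 206 and 216 at day 2, and 249, 190 and 297 at day 14. Every day 2 and day 14 library lay above every day 0 library. H4 rows went the other way at day 2, with 110, 89.0 and 103 TPM at day 0, 46.7, 44.3 and 37.4 at day 2, and 90.0, 54.5 and 104 at day 14. All day 2 libraries were below the other days for H4, while days 0 and 14 overlapped. H3 rows summed to 46.7, 42.2 and 37.7 TPM at day 0, 22.6, 33.4 and 34.3 at day 2, and 67.3, 58.3 and 113 at day 14, so that the 3 days did not overlap. H1 rows, which are nearly all Hist1h1c, summed to a mean of 110, 149 and 61.7 TPM at days 0, 2 and 14, with the day 14 libraries below all others. H2B rows summed to a mean of 180, 219 and 317 TPM, with days 0 and 2 overlapping and all day 14 libraries above day 0. The ratios between days kept their direction in all 5 families under the 5 other scalings, except for H2A at day 14 against day 2, which turned from a log2 ratio of 0.21 to -0.09 with median-of-ratios scaling and -0.12 with quantile normalization.

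**Figure D2:**
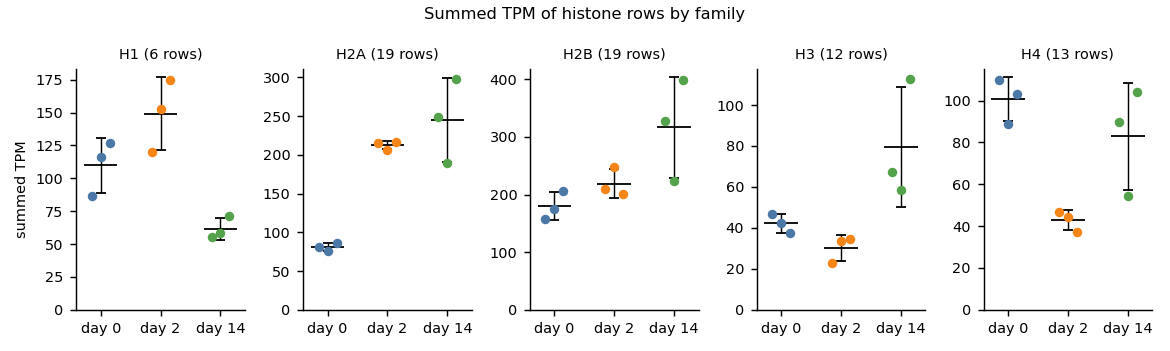
Summed TPM (vertical axis) of the rows of each histone family at days 0, 2 and 14; points are the 3 libraries of a day, horizontal lines the mean and error bars the SD. H2A sits at 76.2 to 86.7 TPM at day 0 and at 190 to 297 at day 14, while H4 drops to 37.4 to 46.7 at day 2.

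The few high rows and the many low rows had different courses, and the division at a mean of 10 TPM was chosen after the values were seen, so it carries no test. The 60 rows with a mean under 10 TPM summed to 150.3, 132.8 and 145.4 TPM at day 0. They summed to 66.1, 68.2 and 66.3 TPM at day 2 and to 176.4, 131.9 and 286.2 TPM at day 14. Every day 2 library was below every library of the other days, and days 0 and 14 overlapped. The day 2 mean was 0.468 times that of day 0, between 0.409 and 0.525 times under the other scalings, and 0.452 to 0.481 times with a library left out. Low rows of each family were below day 0 in every day 2 library, with a ratio of 0.585 in H1, 0.296 in H2A, 0.746 in H2B, 0.309 in H3 and 0.544 in H4. The day 14 mean was 1.39 times that of day 0, and 1.08 times without the third day 14 library, the highest of that day. With quantile normalization it was 0.906 times that of day 0.

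The 9 higher rows summed to 332, 365 and 416 TPM at day 0, 548, 616 and 597 at day 2, and 613, 453 and 698 at day 14. All libraries of days 2 and 14 were above day 0, and days 2 and 14 overlapped. With median-of-ratios scaling days 0 and 14 overlapped as well, at a ratio of 1.29 in place of 1.59. The division used the mean over all libraries. Hist1h2bj, Hist2h3c2, Hist1h4h and Hist2h2aa2 had day 0 means of 4.03, 5.73, 6.86 and 1.87 TPM and were high rows through later libraries. Part of the rise of the high rows over day 0 was therefore built into the division, which also took these members out of the low rows. Low rows supplied 27.9%, 10.2% and 24.7% of the histone TPM at days 0, 2 and 14. Summed over all 69 rows, TPM was 514 ± 42.1, 654 ± 36.2 and 786 ± 200 (SD, n = 3), a total in which the low rows and the high rows go opposite ways at day 2. In a bulk sample fewer cells that make an mRNA and less of it per cell cannot be told apart.

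**Figure D3:**
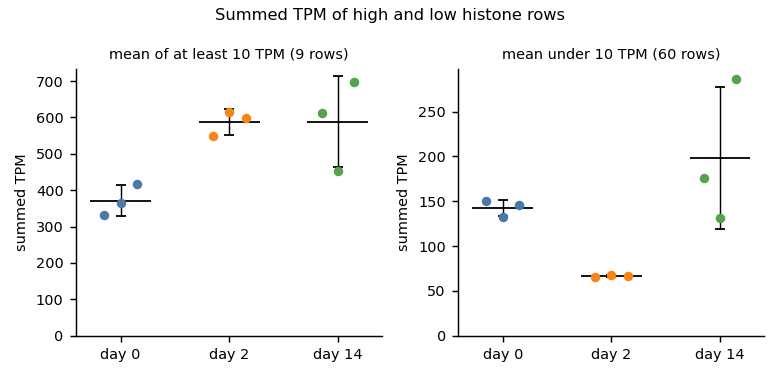
Summed TPM (vertical axis) of the 9 histone rows with a mean of at least 10 TPM and of the 60 rows below it, at days 0, 2 and 14; points are libraries, lines the mean and bars the SD. The low rows lie at 66.1 to 68.2 TPM at day 2 and at 131.9 TPM or more on the other days. The high rows, some of them high only through later libraries, lie above day 0 on both later days.

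Hist1h1c, which encodes the linker histone H1.2, made up most of family H1. It had 81.0, 111 and 122 TPM at day 0, 118, 149 and 171 at day 2, and 50.1, 56.6 and 67.0 at day 14. The day 14 libraries were the lowest 3 of all 9, and days 0 and 2 overlapped. It fell by 0.83 at day 14 against day 0 (SE 0.19, limma adjusted p = 0.00534) and by 1.31 against day 2 (SE 0.19, limma adjusted p = 0.00122). Its difference of 0.48 at day 2 against day 0 had a limma adjusted p of 0.053, which passed the threshold under 8 of 22 alternatives, among them those without the third day 0 or the first day 2 library. It is 1 of the histone genes known to yield polyadenylated mRNA, and 88.6% of its 31-base stretches occur in no other row's models.

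The other H1 rows were low. Hist1h1d, the H1.3 gene, had 2.31, 1.59 and 2.35 TPM at day 0, 0.887, 0.817 and 0.887 at day 2, and 1.09, 0.755 and 1.52 at day 14. It fell by 0.72 at day 2 (limma adjusted p = 0.00633) and by 0.54 at day 14 (limma adjusted p = 0.0257) against day 0, and the second call was lost without the first or the third day 0 library and without the first or the second day 14 library. Hist1h1e, the H1.4 gene, had means of 1.33, 1.41 and 1.32 TPM on the 3 days and no call. Hist1h1b, the H1.5 gene, averaged 0.980, 0.749 and 0.839 TPM and was not tested. Hist1h1t, the testis H1 gene, stayed at or below 0.191 TPM in every library. The other germ line members were as low, with Hist1h2aa at most 0.404 TPM and Hist1h2ba at 0.

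In family H2A the level came from Hist2h2aa1, Hist2h2aa2 and Hist3h2a. Hist2h2aa1 had 18.4, 21.0 and 26.5 TPM at day 0, 137, 125 and 118 at day 2, and 118, 78.8 and 136 at day 14. Every later library was above every day 0 library, by 2.49 on the log2 scale at day 2 (SE 0.20, limma adjusted p = 1.05e-05) and by 2.27 at day 14 (SE 0.20, limma adjusted p = 4.88e-05). Hist2h2aa2 is its near-identical neighbour: none of its 31-base stretches is unique to it, and 10.4% of those of Hist2h2aa1 are. Reads can therefore be placed on either row, and Hist2h2aa2 had 0, 1.74 and 3.88 TPM at day 0, 15.6, 7.17 and 31.7 at day 2, and 26.6, 18.2 and 14.1 at day 14. The pair together had 18.4, 22.8 and 30.4 TPM at day 0, 152, 132 and 149.5 at day 2, and 145, 97.1 and 150.01 at day 14. That sum was 6.08 times day 0 at day 2 and 5.48 times at day 14.

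Hist3h2a, the single H2A gene of the Hist3 cluster, had 20.2, 18.8 and 23.0 TPM at day 0, 50.8, 63.1 and 56.9 at day 2, and 69.0, 63.0 and 84.1 at day 14. It rose by 1.42 at day 2 (SE 0.14, limma adjusted p = 3.19e-05) and by 1.75 at day 14 (SE 0.14, limma adjusted p = 2.93e-05) against day 0, with no overlap in either comparison. Days 2 and 14 overlapped. Its model and that of the neighbouring gene Trim17 share sequence, so reads there could be placed on either, and 67.9% of its 31-base stretches are unique to it. Both of these calls, and those of Hist2h2aa1 and Hist2h2aa2 against day 0, passed under all 22 alternatives.

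The lower H2A rows had another course. Hist1h2ab had 4.48, 4.46 and 0.768 TPM at day 0, 1.85, 0.411 and 0.465 at day 2, and 3.04, 10.2 and 24.1 at day 14. It rose by 2.53 between days 2 and 14 (SE 0.66, limma adjusted p = 0.0189), and its day 14 values spread over a wide range. The call was lost without the third day 2, the second day 14 or the third day 14 library. Hist1h2ai was listed at 6.46, 1.30 and 6.72 TPM at day 0, at 4.11, 1.83 and 0 at day 2, and at 0 in all day 14 libraries. It fell at day 14 against day 0 (limma adjusted p = 0.00928), with 13.2% of its 31-base stretches unique to it. Hist1h2ae, Hist1h2af and Hist2h2ac were the H2A rows that fell at day 2.

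Hist1h2bc was the most abundant histone row, and with Hist2h2be and Hist1h1c it is among the histone genes known to yield polyadenylated mRNA. It had 122, 141 and 167 TPM at day 0, 185, 222 and 175 at day 2, and 264, 165 and 279 at day 14. All day 2 libraries were above day 0, and the log2 difference of 0.44 had a limma adjusted p of 0.0932, which passed under 6 of 22 alternatives. The second day 14 library fell inside the day 0 range, and the rise at day 14 of 0.69 (SE 0.21, limma adjusted p = 0.0185) was lost with median-of-ratios scaling and without the first day 0, the first day 14 or the third day 14 library. Hist2h2be had means of 3.04, 2.06 and 3.77 TPM and rose between days 2 and 14 by 0.64 (SE 0.17, limma adjusted p = 0.0191), a call lost with median-of-ratios scaling, with quantile normalization and without the first day 2 or the third day 14 library.

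Hist1h2bj was lowest at day 2 and highest at day 14. It had 6.46, 3.77 and 1.85 TPM at day 0, 0, 0.893 and 1.02 at day 2, and 17.7, 21.4 and 48.3 at day 14. The 3 days did not overlap. It fell by 1.58 at day 2 (SE 0.46, limma adjusted p = 0.0145) and rose by 2.56 at day 14 against day 0 (SE 0.46, limma adjusted p = 0.00148). The fall at day 2 was lost with a pseudocount of 5 TPM and without the first day 0 or the first day 2 library. Its rise of 4.13 between days 2 and 14 (SE 0.46, limma adjusted p = 0.000279) passed under all 22 alternatives. Of its 31-base stretches 32.8% are unique to it, and it shares most with Hist1h2br. Hist3h2ba had means of 7.69, 7.85 and 12.5 TPM and Hist1h2bg 4.56, 4.49 and 9.75, both without a call.

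**Figure D4:**
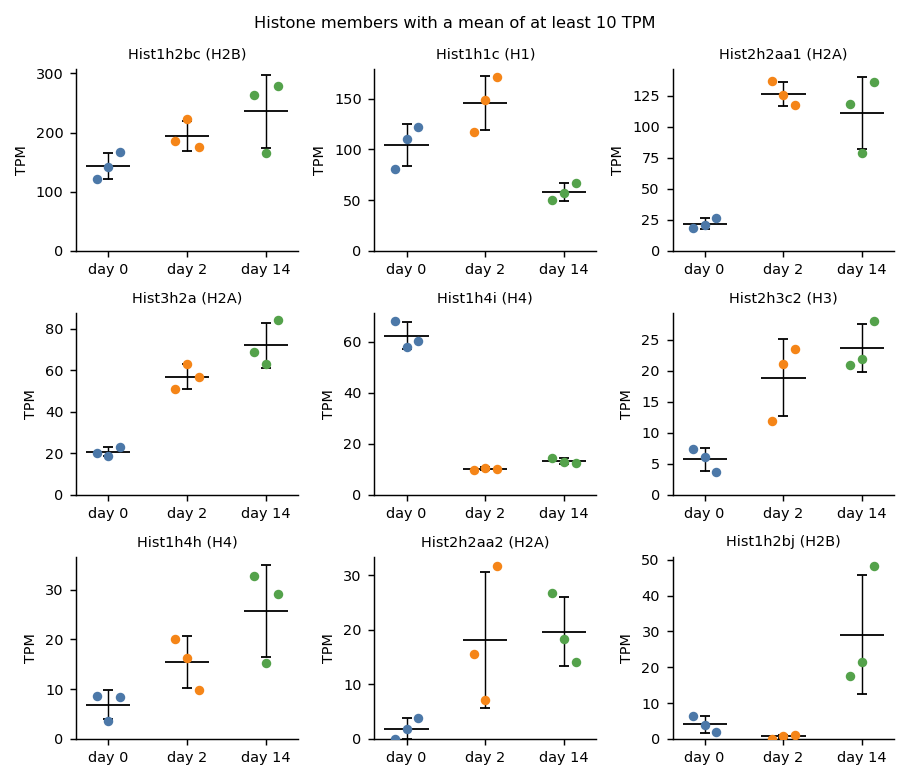
TPM (vertical axes, each from 0) of the 9 histone rows with a mean of at least 10 TPM at days 0, 2 and 14; points are libraries, lines the mean and bars the SD, which for Hist2h2aa2 at day 0 reaches 0. Hist1h4i is high at day 0 alone, Hist1h1c is lowest at day 14, and Hist2h2aa1 lies at 18.4 to 26.5 TPM at day 0 and at 78.8 TPM or more afterwards.

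Among H3 rows, Hist2h3c2 had its highest levels on the later days, as did the H2A pair of the same cluster. It had 7.34, 6.14 and 3.69 TPM at day 0, 11.9, 21.1 and 23.6 at day 2, and 20.9, 21.9 and 28.0 at day 14. Every later library was above every day 0 library, by 1.55 at day 2 (SE 0.28, limma adjusted p = 0.00124) and 1.90 at day 14 (SE 0.28, limma adjusted p = 0.000555). Its stretches are 35.8% unique, and it shares most with Hist2h3c1.

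Hist1h3c and Hist1h3g were lowest at day 2. Hist1h3c had 7.05, 7.26 and 5.49 TPM at day 0, was listed at 0 in all 3 day 2 libraries, and had 6.82, 6.52 and 10.8 TPM at day 14. Days 0 and 14 overlapped and day 2 stood below both (limma adjusted p = 2.97e-06 against day 0 and 1.12e-05 against day 14). Hist1h3g had 5.71, 10.5 and 8.39 TPM at day 0, 0.640, 0 and 0.549 at day 2, and 2.02, 1.83 and 5.54 at day 14, with no overlap between any days. It fell by 2.72 at day 2 (SE 0.35, limma adjusted p = 0.000166) and by 1.23 at day 14 against day 0 (SE 0.35, limma adjusted p = 0.0149). The day 14 call was lost with a pseudocount of 0.1 TPM and without the second day 0 or the second day 14 library.

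Hist2h3b had 9.34, 3.19 and 3.97 TPM at day 0, was at or near 0 in every day 2 library, and had 4.89, 0 and 6.42 TPM at day 14. It fell at day 2 against day 0 (limma adjusted p = 0.00853), and 19.4% of its stretches are unique to it. Hist1h3d, with means of 4.75 ± 2.37, 5.44 ± 0.525 and 16.8 ± 5.39 TPM (SD, n = 3), rose at day 14 by 1.66 against day 0 (limma adjusted p = 0.0023) and by 1.42 against day 2 (limma adjusted p = 0.0105). Hist1h3b had means of 3.60 ± 3.05, 1.51 ± 0.824 and 10.6 ± 7.06 TPM, and its rise of 2.05 between days 2 and 14 (limma adjusted p = 0.0328) was lost in 8 of 22 alternatives, among them those without the second or the third day 2 library and without the second or the third day 14 library.

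Hist1h4i held most of the H4 level at day 0 and had the smallest spread among the high rows. It had 68.2, 58.1 and 60.5 TPM at day 0, 9.63, 10.7 and 10.3 at day 2, and 14.5, 12.9 and 12.5 at day 14. The day 0 libraries stood far above all others. It fell by 2.50 at day 2 (SE 0.11, limma adjusted p = 3.95e-07) and by 2.15 at day 14 against day 0 (SE 0.11, limma adjusted p = 5.32e-06), and both calls passed under all 22 alternatives. The rise of 0.35 from day 2 to day 14 (SE 0.11, limma adjusted p = 0.0376) was lost in 15 of 22 alternatives, among them the 5 that leave out the first or the third day 2 library or any day 14 library. Hist4h4, the H4 gene on chromosome 6, had 2.45, 2.93 and 1.22 TPM at day 0, 0.410, 0 and 0 at day 2, and 0.431, 0 and 0 at day 14. It reached 1 TPM at day 0 alone and was tested only through that day, so a fall was built into its being tested, and its log2 differences from day 0, -1.47 on both days, are given without a test.

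Other H4 rows rose. Hist1h4h had 8.55, 3.56 and 8.48 TPM at day 0, 20.1, 16.4 and 9.75 at day 2, and 32.8, 15.2 and 29.2 at day 14. Its rise of 1.08 at day 2 (SE 0.38, limma adjusted p = 0.0349) was lost with no filter and without the second day 0, the first day 2 or the second day 2 library, while that of 1.78 at day 14 against day 0 (SE 0.38, limma adjusted p = 0.00396) passed in all 22. Hist1h4m had 4.77, 0 and 0 TPM at day 0, 5.99, 1.84 and 5.13 at day 2, and 10.5, 16.2 and 29.5 at day 14, a rise of 3.34 at day 14 (SE 0.68, limma adjusted p = 0.00299). Hist1h4n, whose model shares most stretches with Hist1h4m, had 3.66, 5.34 and 14.6 TPM at day 0, 0, 3.06 and 1.91 at day 2, and 15.4 at day 14 in the first library, with the other two at or near 0. Only 8.3% of the stretches of Hist1h4m and 12.5% of those of Hist1h4n are unique, so these 2 rows can trade reads between libraries, which was not tested.

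The spread between libraries of 1 day was wide for low histone rows and is given without a test. For members with a mean of 1 to 10 TPM over all libraries, the median coefficient of variation was 61.5%, 59.3% and 63.8% at days 0, 2 and 14. Over all rows of that level it was 15.5%, 21.2% and 19.9%. For members with a mean of at least 10 TPM over all libraries it was 20.2%, 18.5% and 26.3%, against 7.69%, 15.2% and 11.9% for all such rows. A row of either class could lie outside its level on a given day, so levels were not matched day by day. The sums spread less than their parts: the 60 low rows together had an SD of 9.03 TPM on 143 at day 0 and of 1.14 on 66.9 at day 2. Day 14 differed, with an SD of 79.4 on 198 TPM, where the third library lay at 286.2 TPM. Of the 69 members, 20 had under 20% unique 31-base stretches, 19 had 20 to 50% and 30 had 50% or more. Members below 20% included 2 of the 9 high rows, Hist2h2aa1 and Hist2h2aa2, and how the quantification divided reads among such rows was not tested.

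By the form of the 3′ end, 4 of the 22 members whose model ends within 100 bases of the stem-loop had a mean of at least 10 TPM, as did 4 of the 22 whose model runs further. In the first class 3 of 20 tested members rose and 5 fell at day 2 (15.0% and 25.0%), and 6 rose at day 14 against day 0 (30%), where limma called none lower after adjustment and 2 at an unadjusted p under 0.05. In the second class 2 of 19 rose and 6 fell at day 2 (10.5% and 31.6%), and 4 rose and 5 fell at day 14 (21.1% and 26.3%). Over all rows the shares were 27.1% and 31.9% at day 2 and 36.2% and 18.8% at day 14, so that each share but the 26.3% that fell at day 14 was near or below the background, and the difference between the classes was not tested. The 11 members whose model runs 100 bases or more past the stem-loop and holds a poly(A) signal near its end included Hist3h2a, which rose, and Hist1h4i, which fell, at day 2.

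Promoters are shown for 3 members with different courses, because CCAAT was found upstream of every H2A gene searched and of few H4 genes. RefSeq promoters (GRCm38.p6) were found for 62 of the 69 members, and the 250 bases before the start were searched on both strands for the box CCAAT, for the TATA box as TATAAA and for the octamer ATTTGCAT, none of which contains another. CCAAT was present in 51 of 62 members (82.3%), against 33.85% of all 32851 promoters, with 18 of 18 in H2A, 16 of 16 in H2B, 6 of 6 in H1, 8 of 10 in H3 and 3 of 12 in H4. TATAAA was present in 29 members (46.8%, all promoters 12.37%). The octamer was present in 13 members (21.0%, all promoters 1.6%), 7 of them H2A and 6 H2B. H2A and H2B genes often stand head to head, so windows of a pair can overlap and these counts are not independent. Members with and without CCAAT went both ways at day 2. Hist2h3c2 and Hist1h4h had no CCAAT match and rose, while Hist1h3c, Hist1h3g and Hist1h2ae had a match and fell. A link between a match and the course was not tested. The 150 bases before the start of Hist1h4i (chr13:22041363-22041512, minus strand), which fell, of Hist2h2aa1 (chr3:96245347-96245496, plus strand) and Hist3h2a (chr11:58954535-58954684, plus strand), which rose, are given with matches on either strand in capitals.
Hist1h4i: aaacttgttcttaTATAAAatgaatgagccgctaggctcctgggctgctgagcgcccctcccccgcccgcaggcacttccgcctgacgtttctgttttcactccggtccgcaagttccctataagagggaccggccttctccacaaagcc
Hist2h2aa1: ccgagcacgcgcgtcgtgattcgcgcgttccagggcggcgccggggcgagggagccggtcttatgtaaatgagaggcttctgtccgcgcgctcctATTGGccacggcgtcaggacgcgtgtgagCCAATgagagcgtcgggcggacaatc
Hist3h2a: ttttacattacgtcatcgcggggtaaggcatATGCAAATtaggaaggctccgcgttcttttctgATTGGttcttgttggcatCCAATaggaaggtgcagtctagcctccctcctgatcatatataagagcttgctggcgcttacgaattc
CCAAT is the box bound by NF-Y and the octamer that bound by Oct-1, as background; a match describes the letters and is no measure of binding.

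Genes that process and degrade histone mRNA were mostly lower at day 2. Of 20 listed genes, all tested, 2 rose and 14 fell at day 2 against day 0, 3 rose and 9 fell at day 14 against day 0, and 9 rose with none lower by limma at day 14 against day 2, also without adjustment. Their medians were -0.81, -0.33 and 0.37. Slbp, the stem-loop binding protein gene, had 59.9, 82.4 and 93.8 TPM at day 0, 21.0, 23.0 and 20.1 at day 2, and 46.0, 44.3 and 48.4 at day 14. The 3 days did not overlap. It fell by 1.81 at day 2 (SE 0.16, limma adjusted p = 1.46e-05) and by 0.73 at day 14 against day 0 (SE 0.16, limma adjusted p = 0.00358), and rose by 1.08 between days 2 and 14 (limma adjusted p = 0.00115).

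Other genes of the list showed the same or another course. Lsm11, a U7 particle subunit, had means of 5.39, 2.86 and 2.43 TPM and fell at both days against day 0 (limma adjusted p = 0.00505 and 0.00212). Eri1, the exonuclease that trims the stem-loop, had 29.1, 14.8 and 21.8 TPM and fell at both days against day 0 (limma adjusted p = 0.000304 and 0.0323), with the day 14 call lost under the replicate block and without the second or the third day 0 library or any day 14 library. Casp8ap2, or FLASH, which links the U7 particle to the cleavage factors, had 8.45, 3.55 and 6.93 TPM and fell at day 2 (limma adjusted p = 0.00145). Zfp473, a U7-associated zinc finger gene, had 0.980, 0.455 and 1.84 TPM, fell at day 2 (limma adjusted p = 0.0234), a call lost without the first or the second day 0 or the first day 2 library. It rose at day 14 against day 0 (limma adjusted p = 0.0124). That call was lost with median-of-ratios scaling, and its direction turned to -0.14 with quantile normalization. Its values were 1.21, 0.897 and 0.838 TPM at day 0, at most 0.520 at day 2, and 2.05, 1.66 and 1.80 at day 14. It passed the filter only through day 14, so part of the rise was built into its being tested.

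For histone gene transcription, 6 of 9 listed genes fell at day 2 (66.7%, all rows 31.9%) and none rose by limma, adjusted or not (all rows 27.1%). At day 14 against day 0, 1 rose and 4 fell (11.1% and 44.4%, all rows 36.2% and 18.8%). Npat, the organiser of the histone locus body, had 6.14, 7.92 and 9.19 TPM at day 0, 7.10, 8.89 and 5.59 at day 2, and 8.32, 8.62 and 8.92 at day 14. Its days overlapped and it had no call, with limma adjusted p between 0.313 and 0.654. Hinfp, an activator of H4 genes, had means of 5.91, 7.09 and 10.5 TPM and rose at day 14 against day 0 (log2 difference 0.74, limma adjusted p = 0.0193), a call lost with median-of-ratios scaling, with quantile normalization and without the second day 0 or the third day 14 library.

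Histone chaperones and acetylation genes fell in 16 of 25 cases at day 2, where 31.9% of all rows fell, and 2 rose (all rows 27.1%). At day 14 against day 0, 13 of the 25 fell (all rows 18.8%) and 3 rose (all rows 36.2%). Between days 2 and 14, 15 rose (all rows 27.4%) and 1 fell (all rows 3.79%). Asf1b, the chaperone of new H3 and H4 in dividing cells, had 59.9, 60.3 and 62.8 TPM at day 0, 4.73, 4.73 and 4.94 at day 2, and 20.5, 26.1 and 29.9 at day 14. It fell by 3.42 at day 2 (SE 0.13, limma adjusted p = 2.73e-07), while its relative Asf1a fell by 0.63 (SE 0.14, limma adjusted p = 0.00341). Chaf1a and Chaf1b, subunits of the replication-coupled assembly factor CAF-1, had means of 62.0 and 56.2 TPM at day 0, 5.83 and 6.45 at day 2, and 29.9 and 26.1 at day 14. Nasp, which holds soluble H3 and H4, had 89.3, 17.6 and 45.3 TPM, and Nap1l1, an H2A and H2B chaperone, had 604, 329 and 419 TPM. Both fell at both days against day 0. Hira, which deposits H3.3 outside replication, and Hjurp, the CENP-A chaperone, had no call, with means of 27.7, 22.9 and 23.9 TPM and of 10.7, 7.85 and 11.7 TPM.

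The 18 variants listed as replication-independent set a further comparison, of which 16 were in the table and 10 tested. How far each of them, H2afx included, is independent of replication was not tested. At day 2, 6 fell (all rows 31.9%) and none rose by limma, adjusted or not (all rows 27.1%). At day 14 against day 0, 1 rose (all rows 36.2%) and 5 fell (all rows 18.8%). From day 2 to day 14, 5 rose (all rows 27.4%) and 1 fell (all rows 3.79%). H2afz, the H2A.Z.1 gene, fell from a mean of 1734 TPM at day 0 to 415 at day 2 and was 637 at day 14. H2afx, the H2A.X gene, had 93.4, 10.8 and 34.0 TPM and Cenpa, the centromeric H3 gene, 129, 4.65 and 49.0 TPM, and each fell at both days against day 0. H3f3a and H3f3b, which encode H3.3, had means of 458, 414 and 408 TPM and of 536, 484 and 451 TPM, and neither was called in any comparison, though both were called lower at day 14 against day 0 with median-of-ratios scaling. H2afv rose at day 14 against day 0 (43.8 ± 3.25 to 77.8 ± 4.0 TPM, SD, n = 3, limma adjusted p = 0.000201). H2afy and H2afj fell at day 2, H1fx fell at day 2 and rose again by day 14, and H1f0, at 104, 112 and 80.4 TPM, fell at day 14 against both other days, a call lost against day 0 in 13 of 22 alternatives and against day 2 in 4.

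**Figure D5:**
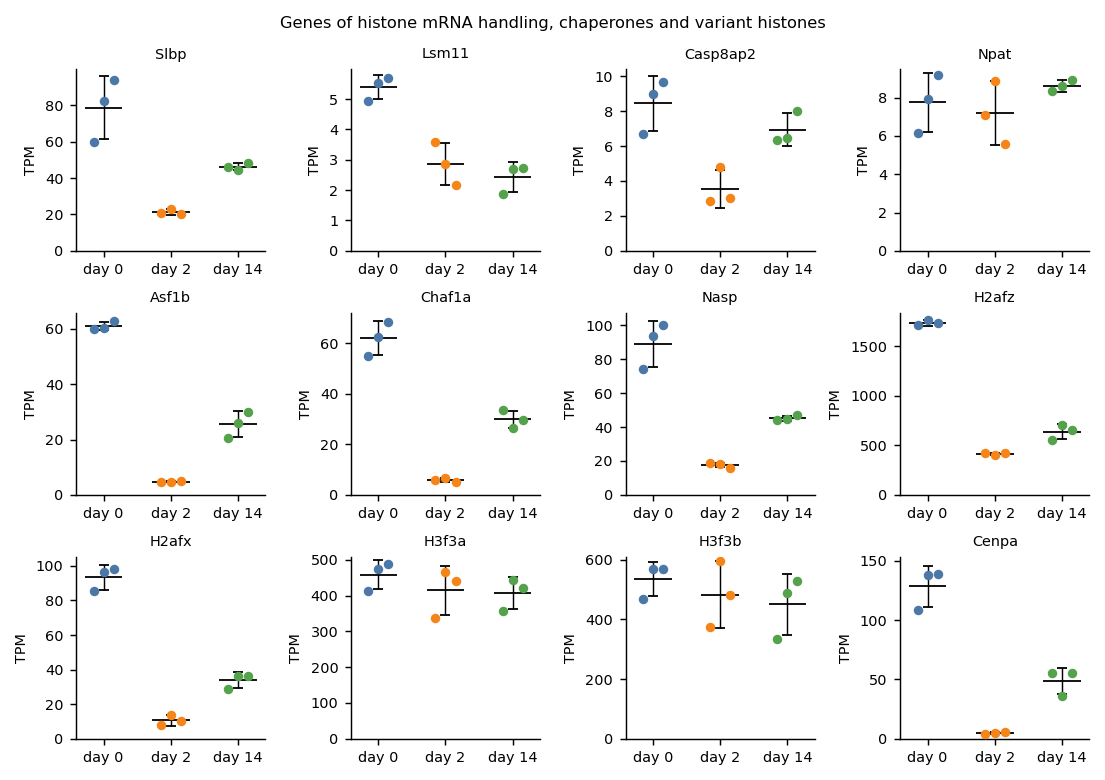
TPM (vertical axes, each from 0) of 12 genes of histone mRNA handling, histone gene transcription, chaperones and variant histones at days 0, 2 and 14; points are libraries, lines the mean and bars the SD. Slbp, Asf1b, Chaf1a, Nasp, H2afx and Cenpa are lowest at day 2 and intermediate at day 14, while Npat, H3f3a and H3f3b overlap between all days.

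All 21 listed S phase genes fell at day 2 against day 0 (median -2.75), where 31.9% of all rows fell. At day 14 against day 0, 20 fell (median -1.13), or 95.2% against 18.8% over all rows. Between days 2 and 14 all 21 rose (median 1.67), where 27.4% of all rows rose. Beside the S phase genes, the 60 low histone rows had the lowest sum at day 2, and the sum of the high rows was not lowest then. Of the high rows, Hist1h4i (means of 62.3, 10.2 and 13.3 TPM) and Hist1h2bj (4.03, 0.636 and 29.1 TPM) were lowest at day 2. The other high rows were not. The part of the S phase genes in the histone values was not tested. Other RNAs that lack a poly(A) tail were looked at beside the histones, since library type is not given. Of 21 listed, 9 were in the table and 5 were tested, and Terc, which rose at day 14 against day 0, was the single call, with no further row at an unadjusted p under 0.05 by limma. That call is 20.0% of those tested, against 36.2% over all rows. Rn45s, the ribosomal RNA precursor, had 891, 757 and 739 TPM at day 0, 459, 437 and 1819 at day 2, and 802, 579 and 490 at day 14, so the third day 2 library stood apart. The 117 small nucleolar and Cajal body RNA rows summed to 21123 ± 2251, 10706 ± 2401 and 15396 ± 2842 TPM on the 3 days in order (SD, n = 3), lower in every day 2 library than at day 0. Of the 90 tested, 33 fell and 1 rose at day 2, or 36.7% and 1.11%, against 31.9% and 27.1% over all rows, so the share that fell was near the background. Their part in the histone values was not tested.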

How the data were processed

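RNA was sequenced from 9 samples of the mouse cell line 6620c1, 3 per day. Per the labels, a Qiagen kit was used for total RNA and Novogene made the libraries. Quantification used Salmon, per the submitters' processing notes. The deposited values are gene TPM as scaled by the authors, and each column sums to about 1000000. No Salmon version, index, build or annotation is given in the sources used here. The 9 columns were matched to samples by day and number, and 0 columns of values were unused.

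The limma fit (3.58.1, in R 4.3.3, eBayes with a trend) took log2(TPM + 1) of every row that reached 1 TPM in 3 or more samples, with 1 mean for each day. Two-sided p-values were adjusted over these 12693 rows by the Benjamini-Hochberg method. The fit was tested on simulated data. Members were all rows matching the symbol rule. Named were the 4 highest members of each family, the 3 largest rises and falls called per comparison, all members of a direction where 5 or fewer were called, and members known as polyadenylated or germ line genes. Members and lists were chosen with earlier results of these data known, so that no list is independent evidence. Uniqueness is the share of a gene's 31-base stretches (31-mers) found in no GENCODE M21 model of another row. Promoters are from RefSeq (GRCm38.p6). Sums over rows carry no test. The alternatives were quantile normalization, median-of-ratios scaling, no filter or a mean of 5 TPM as the filter, pseudocounts of 0.1 and 5 TPM, removal of the 20 most abundant rows, of Mir6236 and Rn45s, or of all microRNA, small nucleolar RNA and Rn45s rows, no variance trend, robust variances, the replicate number as a block, fits of the compared groups alone, and each library left out. Plots came from matplotlib 3.10.9 in Python 3.11.15.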

Additional observations from a re-analysis of the deposited data

Results flagged for a closer look

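Day 14 against day 2 compares the 2 later days directly, since both share day 0. In it, 9 named members had a limma adjusted p under 0.05 and 15 tested named members did not. These calls are among those given above. Hist1h2bj, Hist1h2ab, Hist1h3c and Hist1h1c were named partly for this comparison, so the 9 are no independent evidence. Of all tested members 28.3% were called higher and 1.89% lower, near the 27.4% and 3.79% of all rows. Log2 differences of day 14 against day 2 were 4.13 for Hist1h2bj, 2.53 for Hist1h2ab, 2.05 for Hist1h3b, 1.49 for Hist1h3g, 1.42 for Hist1h3d, 0.64 for Hist2h2be and 0.35 for Hist1h4i. Hist1h3c differed by 3.15, a size set by the pseudocount because it was listed at 0 in all day 2 libraries. Hist1h1c differed by -1.31 and was the single member that fell.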

How the results depend on the processing

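Of the 22 settings tried, requiring a mean of at least 5 TPM kept 15 members in the test and left 2 lower at day 2 and 2 lower at day 14 against day 0, and 5 higher at day 14 against day 2, with fewer rows tested. Quantile normalization gave 12 lower at day 14 against day 0 and 7 higher at day 14 against day 2, and the cause was not tested. The log2 ratio of the summed TPM of all members at day 2 against day 0 was 0.35, and 0.56 with quantile normalization and 0.52 without the 20 most abundant rows. The ratio at day 14 against day 2, 0.27, turned to -0.03 with median-of-ratios scaling and -0.08 with quantile normalization. With each library left out, members ran from 4 to 7 higher and 9 to 16 lower at day 2 against day 0, the 9 without the first day 0 library. They ran from 11 to 14 higher and 4 to 8 lower at day 14 against day 0, the 4 without the first day 0, the third day 0 or the second day 14 library. They ran from 7 to 17 higher and 1 to 2 lower at day 14 against day 2, the 7 without the third day 14 and 8 without the third day 2 library. The summed log2 ratios ran from 0.30 to 0.42, from 0.42 to 0.79 and from 0.07 to 0.44 in the same order. Zfp473 at day 14 against day 0 turned to -0.14 with quantile normalization.

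Same-numbered samples correlated at -0.07 to 0.32 over 9 pairs once day means were taken out, so they were not taken as paired. With the replicate block 6 members were higher and 17 lower at day 2, 12 and 7 at day 14 against day 0, and 18 and 1 at day 14 against day 2. Of the named members' calls, 10 of 12 at day 2 against day 0, 12 of 15 at day 14 against day 0 and 5 of 9 at day 14 against day 2 held under all settings they could be fitted in, and 6 of 12, 4 of 9 and 3 of 15 uncalled ones passed under at least 1. TPM keep no depth, which limits statements on rows near 0.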
